A study of Drosophila melanogaster with 6 samples.

Results

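The mitochondrial ribosomal protein genes were examined in RNA-seq data from dissected eyes of male Drosophila melanogaster at day 40 (3 libraries) and day 10 (3 libraries) after eclosion. Members were all genes whose FlyBase symbol starts with mRpL (large subunit) or mRpS (small subunit), which gave 73 genes, 47 of the large and 26 of the small subunit, in a series with 14537 gene rows. All flies of both ages had the same genotype, although the sample titles call them WT: a w background with transgenes on the third chromosome, P{w[+mC]=[UAS-GFP-Msp300KASH} at attP2 together with P{ry[+t7.2]=rh1-GAL4}3, and the ry[506] allele. In this genotype the rh1 promoter, active in the outer photoreceptors, drives a GFP-tagged KASH domain through GAL4, and the library of each sample was made from the whole eye rather than from the tagged nuclei. Flies were kept in a 12:12 light:dark cycle at 25 °C, and the only labelled difference between the groups was age. In bulk eyes, fewer cells of a type and less RNA per cell cannot be told apart.

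Mitochondria hold their own ribosome, which makes the small set of proteins that the mitochondrial genome encodes, all of them subunits of the oxidative phosphorylation complexes. Its ribosomal RNAs come from the mitochondrial genome, whereas every protein of its large and small subunits is encoded in the nucleus, translated in the cytosol and imported. Part of these proteins have counterparts in bacterial ribosomes, and the others are found only in mitochondria. Photoreceptors are rich in mitochondria, because the light response consumes much ATP.

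Of the 73 genes, 30 had a count row of their own (19 large, 11 small) and 42 were counted only in rows that join a gene with the genes it overlaps (28 large, 14 small). mRpS34 matched no row and was not analysed here. The gene labelled mRpS5 was matched by its Release 6 position, because its identifier in the count files (FBgn0044510) carried no symbol in the name table. A joined row sums the reads of all its genes, so its value is not that of the member alone. A larger share of members than of other genes was in joined rows, 58.3% of the 72 matched members, against 30.9% of all 17560 gene identifiers. Both the count rows and their exonic parts lack strand, so reads of a member and of an antisense neighbour could not be separated. The members lay on chromosomes 2L (12 genes), 2R (12), 3L (17), 3R (21) and X (11).

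Libraries held 8476220 to 12686867 counts on genes at day 40 and 8946125 to 15029770 at day 10, and replicates of an age differed by more than counting error. Photoreceptor genes dominated both ages: ninaE, the Rh1 opsin, had 46623 to 61800 counts per 1000000 counts of the library (CPM) at day 40 and 42293 to 81272 CPM at day 10, and none of the 9 photoreceptor markers with a row of their own passed the test. The 3 hemocyte markers summed to 144 to 164 CPM at day 40 and 275 to 526 CPM at day 10. Most of this sum was Hml (137 to 157 CPM at day 40, 269 to 519 at day 10), which was lower at day 40 (edgeR adjusted p = 0.0272). In the same list eater had a log2 change of -0.44 (edgeR adjusted p = 0.485) and NimC1 one of 0.08 (adjusted p = 0.963). The joined row of srp was at -0.46 (adjusted p = 0.231). Of 4 pigment and cone cell markers, which summed to 540 to 590 CPM at day 40 and 657 to 956 CPM at day 10, Crys was lower at day 40 (edgeR adjusted p = 0.0308). In the same list ninaG was higher in every library of day 40, with 46.5, 55.6 and 49.9 CPM at day 40, against 39.1, 38.9 and 33.8 CPM at day 10 (log2 change 0.45, edgeR adjusted p = 0.128). The joined row of santa-maria, also on this list, was higher in every library of day 40 too (log2 change 0.39, adjusted p = 0.107). On this list ct had a log2 change of -0.26 (adjusted p = 0.457) and the joined row of sv one of 0.02 (adjusted p = 0.965). The sum includes w, which these flies carry as the marker of a transgene in a w background and which was lower at day 40 (edgeR adjusted p = 0.00421), so it was not read as a cell marker. The 4 muscle markers summed to 398 to 435 CPM at day 40 and 394 to 690 CPM at day 10 with 0 called, and the testis gene dj was at or below 0.610 CPM throughout. Of the fat body markers, the joined row of Lsp2 and an antisense RNA was lower at day 40 (log2 change -1.15, edgeR adjusted p = 0.0161). In that list fon was at 0.43, Fbp1 at -0.22 and the joined row of apolpp at -0.12, with none of these 3 called. Of 3 neuron and 3 glia markers with a row of their own, 0 were called. The part of these cell types in the values below was not tested.

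The mitoribosomal genes were expressed at a moderate level, close to that of the typical gene of the eye and far below the cytosolic ribosomal protein genes. Levels between genes were compared as CPM per kilobase of exon. The median of the 30 members with a row of their own was 9.24 at day 40 and 10.7 at day 10, against 8.86 and 8.83 for all 7024 single-gene rows tested. The 55 cytosolic ribosomal protein genes with a tested row of their own had medians of 543 at day 40 and 449 at day 10. The 40 nuclear genes of oxidative phosphorylation had medians of 62.6 at day 40 and 70.4 at day 10. Together the 30 members took 0.0289% to 0.0326% of the gene counts at day 40 and 0.0285% to 0.0392% at day 10. Members were short genes, with a median of 804 exonic bases, against 2066 bases over all single-gene rows.

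**Figure D1:**
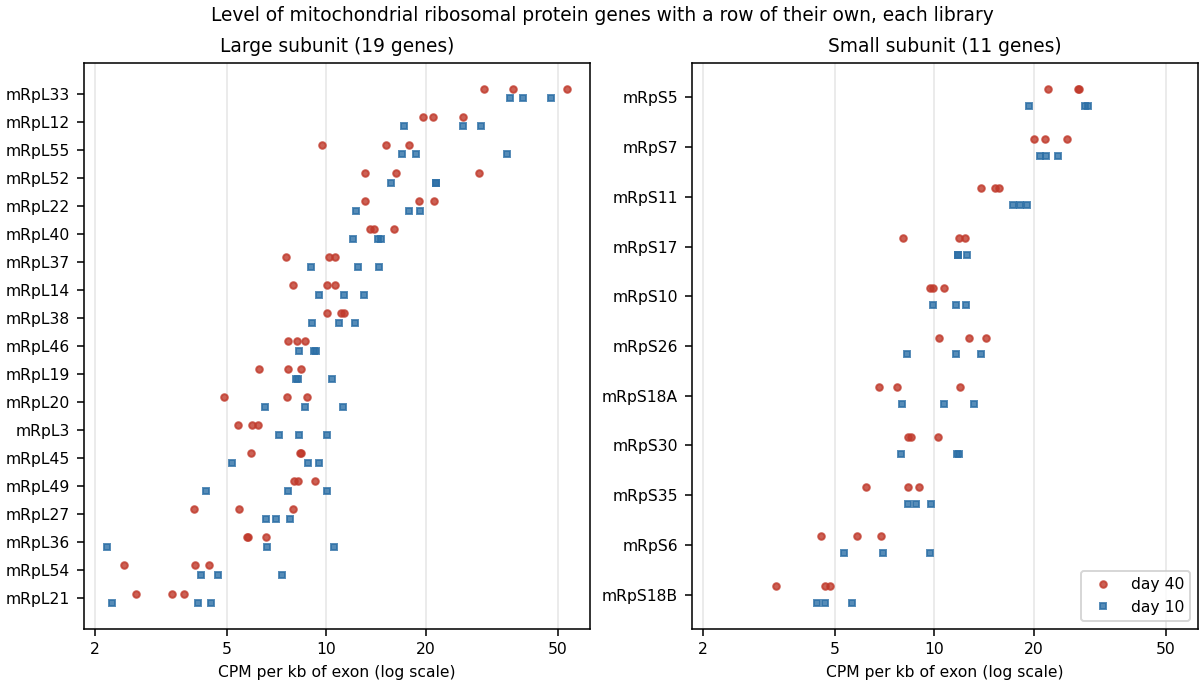
Level of the 30 mitochondrial ribosomal protein genes with a row of their own, in CPM per kilobase of exon on a log axis, with 1 point per library (circles, day 40; squares, day 10) and genes ordered by their day 10 mean. mRpL33 lies above all other members of the large subunit on average at both ages, mRpL21 has the lowest mean, and for nearly all genes the points of the 2 ages overlap.

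In the large subunit, levels per kilobase spanned 12.2-fold between the highest and the lowest gene at day 40 and 11.3-fold at day 10. mRpL33, a small protein with a bacterial counterpart, was highest with 40.0 ± 12.0 CPM per kilobase at day 40 and 40.9 ± 6.04 at day 10 (SD, n = 3 each). mRpL12 followed with 22.1 ± 3.29 at day 40 and 24.1 ± 6.27 at day 10. Its bacterial counterpart forms the stalk that recruits translation factors and is present in more copies per ribosome than other ribosomal proteins. mRpL55, which has been described as required for normal fly development, had 14.2 ± 4.16 CPM per kilobase at day 40 and 23.6 ± 10.0 at day 10. At the low end were mRpL21 (3.27 ± 0.539 at day 40, 3.61 ± 1.19 at day 10), mRpL54 (3.63 ± 1.05 at day 40, 5.42 ± 1.70 at day 10) and mRpL36 (6.03 ± 0.463 at day 40, 6.45 ± 4.19 at day 10). Of the 18 pairs of neighbours in the order of the large subunit, only mRpL33 and mRpL12 did not overlap between their libraries, at day 40 and at day 10 alike. The positions of the other neighbours did not differ beyond the spread of the replicates.

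The small subunit spanned less, 5.96-fold at day 40 and 5.21-fold at day 10. mRpS5 (25.5 ± 2.97 CPM per kilobase at day 40, 25.6 ± 5.50 at day 10) and mRpS7 (22.2 ± 2.65 at day 40, 22.1 ± 1.45 at day 10) were highest. The bacterial counterpart of mRpS7 organises the head of the small subunit. mRpS11, whose counterpart sits on the platform of the small subunit, followed with 14.9 ± 0.990 at day 40 and 18.2 ± 0.867 at day 10. The lowest were mRpS18B (4.27 ± 0.830 at day 40, 4.92 ± 0.643 at day 10), mRpS6 (5.76 ± 1.17 at day 40, 7.34 ± 2.21 at day 10) and mRpS35 (7.85 ± 1.44 at day 40, 8.94 ± 0.731 at day 10). Of the 10 pairs of neighbours in this order, mRpS11 and mRpS7 did not overlap between their libraries at either age, and mRpS17 and mRpS11 did not overlap at day 10.

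The comparison of day 40 with day 10 asked whether these genes change in the eye with age. No member with a row of its own passed the test. Log2 changes (day 40 over day 10) of the 30 genes lay between -0.70 and 0.19, and 24 of 30 were below 0, against 50.4% of all single-gene rows. Their median was -0.17, against -0.00 for all 7024 single-gene rows and -0.01 for the 3245 single-gene rows in the members' range of mean expression. In edgeR's quasi-likelihood test with Benjamini-Hochberg adjustment over 9255 rows, 0 of 30 passed an adjusted p of 0.1 (4.33% of single-gene rows did), the lowest adjusted p was 0.263, and 1 gene had an unadjusted p under 0.05 (14.2% of single-gene rows did). DESeq2 called 0 of 30 as well, with 2 at an unadjusted p under 0.05. The rows of all 72 matched members passed the filter on low counts. The 95% intervals of 24 genes lay between -1 and 1, so that a change of 2-fold or more was outside them, while 6 intervals included -1 and 0 included 1.

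**Figure D2:**
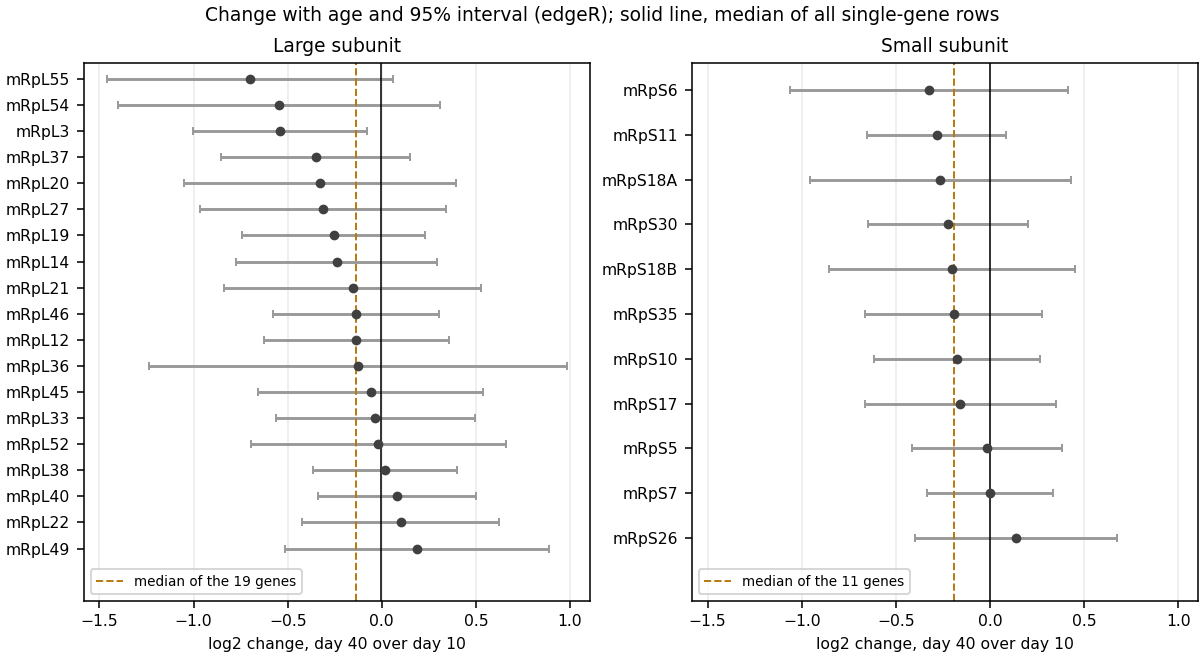
Log2 change (day 40 over day 10) of the 30 genes with a row of their own, by subunit, with 95% intervals from edgeR. The dashed lines mark the medians (-0.14 for the large and -0.19 for the small subunit) and the solid line marks the median of all single-gene rows (-0.00); only the interval of mRpL3 lies wholly below 0.

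Both subunits had medians below 0. The large subunit had a median of -0.14 with 15 of 19 genes below 0, and the small subunit a median of -0.19 with 9 of 11 below 0. The order of the subunits was not stable: the large subunit median was -0.28 without the first library of day 40 and -0.27 without the first library of day 10, where the small subunit median was -0.17 in both fits. mRpS18A and mRpS30 are placed here by their names, but in mammals their counterparts sit in the large subunit. Moved there, they left medians of -0.15 (21 genes) and -0.17 (9 genes) in the large and small subunit. The 17 members classed here as having a bacterial counterpart had a median of -0.17, and the other 13 a median of -0.14. These 13 include mRpS18A and mRpS18B, although mRpS18C was classed with the bacterial counterparts, so not all 13 are found only in mitochondria. The difference between these groups was not tested.

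mRpL3 (FBgn0030686, X:15761248-15762663 in BDGP6) had the lowest p of the members with a row of their own. The bacterial counterpart of this protein reaches from the surface of the large subunit to the centre where peptide bonds form. It had 7.39, 7.73 and 6.74 CPM at day 40, against 8.96, 10.2 and 12.5 CPM at day 10. All 3 libraries of day 40 were below all 3 of day 10. Its log2 change was -0.54 (SE 0.21, unadjusted p = 0.0267, adjusted p = 0.263 by edgeR), and it kept its sign without any single library (-0.63 to -0.40). The log2 changes of its 4 exonic parts ran from -0.76 to -0.53, with none past the threshold.

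Lower by estimate, but with libraries that overlapped, was mRpL55, which had 4.41, 6.91 and 8.13 CPM at day 40, against 16.0, 7.72 and 8.49 CPM at day 10. The first library of day 10 held the high value, and the log2 change of -0.70 (SE 0.34, adjusted p = 0.405 by edgeR) was -0.31 without that library. mRpL54 had 1.67, 2.75 and 3.02 CPM at day 40, against 5.02, 3.21 and 2.85 CPM at day 10, a log2 change of -0.54 (SE 0.38) that was -0.27 without the first library of day 10. mRpL37 had a log2 change of -0.35 (SE 0.22). Both belong to the proteins found only in mitochondria. At the other end, mRpL49 had 7.16, 6.20 and 6.35 CPM at day 40, against 3.35, 7.79 and 5.92 CPM at day 10, and a log2 change of 0.19 (SE 0.31), which turned to -0.06 without the first library of day 10. No library of day 40 stood outside the range of day 10 for this gene.

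In the small subunit, mRpS11 (3R:17072732-17073795) was the gene whose ages did not overlap. It had 11.1, 10.1 and 11.5 CPM at day 40, against 13.9, 13.3 and 12.6 CPM at day 10. The log2 change was -0.28 (SE 0.16, unadjusted p = 0.119, adjusted p = 0.501 by edgeR). mRpL3 and mRpS11 were the 2 of 30 members that were lower in every library of day 40, and 0 of 30 were higher in every one. Over all single-gene rows, 9.74% did not overlap and were lower at day 40, and 10.8% did not overlap and were higher. mRpS6 had 2.86, 3.66 and 4.34 CPM at day 40, against 6.09, 3.35 and 4.38 CPM at day 10, a log2 change of -0.32 (SE 0.33) that was -0.08 without the first library of day 10. mRpS26, with 10.5, 8.54 and 11.8 CPM at day 40 and 6.81, 11.4 and 9.60 CPM at day 10, was highest at 0.14 (SE 0.24), and turned to -0.03 without that library. mRpS7 and mRpS5, the most abundant genes of the small subunit, had log2 changes of 0.00 (SE 0.15) and -0.01 (SE 0.18).

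Summed levels overlapped between the ages in both subunits. The 19 large subunit genes summed to 185, 169 and 151 CPM at day 40, against 171, 192 and 196 CPM at day 10. The means were 169 ± 17.0 CPM at day 40 and 186 ± 13.2 CPM at day 10 (SD, n = 3 each). The 11 small subunit genes summed to 144, 144 and 133 CPM at day 40, against 133, 157 and 161 CPM at day 10, with means of 140 ± 6.43 and 150 ± 15.1 CPM (SD, n = 3 each). In both subunits the first library of day 10 lay within the range of day 40. The ratio of large to small subunit sums was 1.20 ± 0.0757 at day 40 and 1.24 ± 0.0394 at day 10 (SD, n = 3 each) and its values overlapped between the ages.

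**Figure D3:**
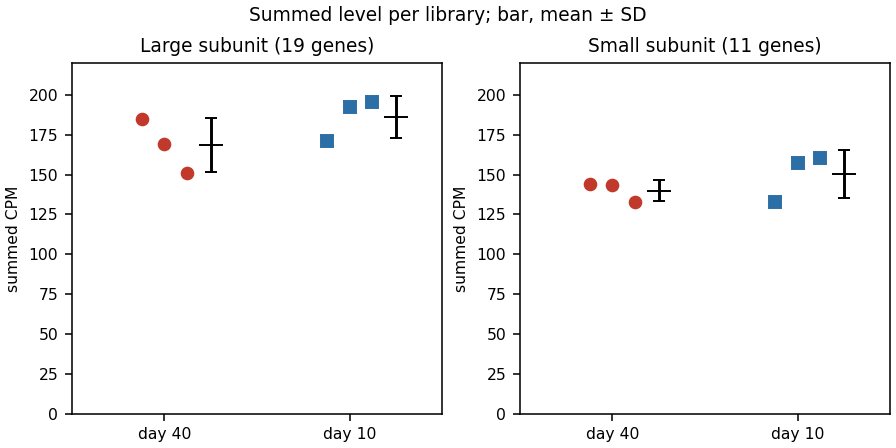
Summed CPM of the 19 large and 11 small subunit genes with a row of their own, with 1 point per library and the mean ± SD of each age beside it. Day 40 (circles) and day 10 (squares) overlap in both panels, and the lowest day 10 library lies at 171 CPM in the large and 133 CPM in the small subunit.

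Of the 42 joined rows that hold a member, 1 passed the test, against 3.45% of all joined rows. Here 30 of 42 log2 changes were below 0 (53.2% of all joined rows were), with a median of -0.09, against -0.01 over all joined rows. In 7 rows every library of day 40 was lower (12.1% of all joined rows) and in 1 row every one was higher (10.5%). An unadjusted p under 0.05 was found for 4 rows, 3 lower and 1 higher at day 40, against 14.7% of all joined rows.

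The row that passed joins mRpL9 (3R:15330738-15331588), a large subunit protein with a bacterial counterpart, with Fkbp39 (3R:15331584-15333133), a nuclear peptidyl-prolyl isomerase that binds the drug FK506. It had 24.8, 25.4 and 24.6 CPM at day 40, against 38.6, 32.9 and 53.5 CPM at day 10. All libraries of day 40 were below those of day 10, and day 10 spread more widely. The row fell by 0.74 on the log2 scale (SE 0.18, adjusted p = 0.0806 by edgeR). Without the third library of day 10 the adjusted p was 0.120, and with each library of day 40 left out in turn it was 0.250 to 0.251, so that the call was lost in these 4 fits. The row has 6 exonic parts. Parts of joined rows carry no positions, so they were taken to follow genome order, as they did in all 12133 single-gene rows. On this assumption the outermost part at the mRpL9 end had 0.835 ± 0.521 CPM at day 40 and 1.31 ± 1.14 CPM at day 10 (SD, n = 3 each), a log2 change of -0.77 (SE 0.87). The part with the largest difference, the fourth, had 11.8 ± 0.663 CPM at day 40 and 25.5 ± 8.82 CPM at day 10 (log2 change -1.12, adjusted p = 0.192 by edgeR). The second part had 12.7 ± 0.917 CPM at day 40 and 15.4 ± 0.362 CPM at day 10 (log2 change -0.29, adjusted p = 0.853). Which gene the inner parts belong to is not known from the files, so the change of this row cannot be assigned to mRpL9.

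In the small subunit, the row of mRpS9 (3R:7889277-7902667) and ArgRS-m, the mitochondrial arginyl-tRNA synthetase, had 41.0, 35.7 and 36.6 CPM at day 40, against 61.8, 59.2 and 44.8 CPM at day 10. The bacterial counterpart of mRpS9 touches the tRNA that carries the growing peptide. All libraries of day 40 were lower, with a log2 change of -0.55 (SE 0.15, adjusted p = 0.110 by edgeR) that passed in DESeq2 (adjusted p = 0.0646) and without the third library of day 10 (adjusted p = 0.0452 by edgeR). Of the 12 exonic parts tested in this row, 10 had log2 changes below 0 and 0 passed the threshold, with 4 at an unadjusted p under 0.05, all lower at day 40. The outermost part at the mRpS9 end had a log2 change of -0.27 (SE 0.38), the part before it -0.77 (SE 0.33), and the one before that had the lowest p of the row, with 3.75 ± 1.30 CPM at day 40 and 9.60 ± 1.99 CPM at day 10 (SD, n = 3 each; log2 change -1.37, adjusted p = 0.175 by edgeR). Which gene the inner parts belong to is again not known from the files. The row of mRpS14 with Naa15-16 and CG32533 had 76.4, 73.8 and 67.1 CPM at day 40, against 106, 74.6 and 125 CPM at day 10, a log2 change of -0.49 (SE 0.18, adjusted p = 0.231 by edgeR). The second library of day 10 lay within the range of day 40, and without it the adjusted p was 0.0384. The row of mRpS23 and Polr2C, a subunit of RNA polymerase II, had a log2 change of -0.33 (SE 0.16).

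A row higher in every library of day 40 was that of mRpS16 with CG18324, ReepB and an antisense RNA. It had 107, 112 and 118 CPM at day 40, against 85.0, 98.9 and 99.7 CPM at day 10, a log2 change of 0.25 (SE 0.11, adjusted p = 0.334 by edgeR). The outermost part at the mRpS16 end had a log2 change of 0.47 (SE 0.34). The next highest rows of the small subunit were those of mRpS25 (0.14), mRpS24 (0.11) and mRpS33 (0.09). In the large subunit the highest were mRpL39 (0.22), mRpL23 (0.18), mRpL43 (0.14) and mRpL10 (0.14), and the lowest adjusted p among these 7 rows was 0.585 by edgeR. The bacterial counterparts of mRpL10 and mRpL23 hold the stalk and sit at the exit of the peptide tunnel, in that order. In the row of mRpL18 and ox, a subunit of respiratory complex III, the first library of day 40 stood apart, with 58.9, 26.5 and 23.8 CPM at day 40, against 41.7, 46.1 and 42.9 CPM at day 10. Its log2 change was -0.27 (SE 0.30), and without that library it was -0.79 with an adjusted p of 0.0734 by edgeR.

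To look at the members apart from their neighbours, the outermost exonic part on the member's side of each joined row was used, where the member extends beyond its neighbours by at least 50 bases. The choice of part assumes that parts of joined rows are numbered in genome order, which could not be checked because they carry no positions. Such a part was found for 38 members, and 34 of them passed the filter on low counts. The part taken for mRpL23 had 0 counts in every library. Their median log2 change was 0.13, with 19 above and 15 below 0. In comparison, the 48 outermost parts of members with a row of their own had a median of -0.14, and the 9012 outermost parts of all single-gene rows a median of 0.05. In edgeR's test of exonic parts, 0 of the 34 passed the threshold and 0 had an unadjusted p under 0.05, where 6.76% of all exonic parts did. mRpL34 alone had no overlap between the ages, higher at day 40 (log2 change 0.78, SE 0.42), against 7.39% of all exonic parts. The median SE of these parts was 0.45, against 0.23 for the gene rows of the 30 members with a row of their own. It ran from 0.21 for the part of mRpS29 to 0.87 for that of mRpL9. The difference in median between these parts and the members with a row of their own was not tested.

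**Figure D4:**
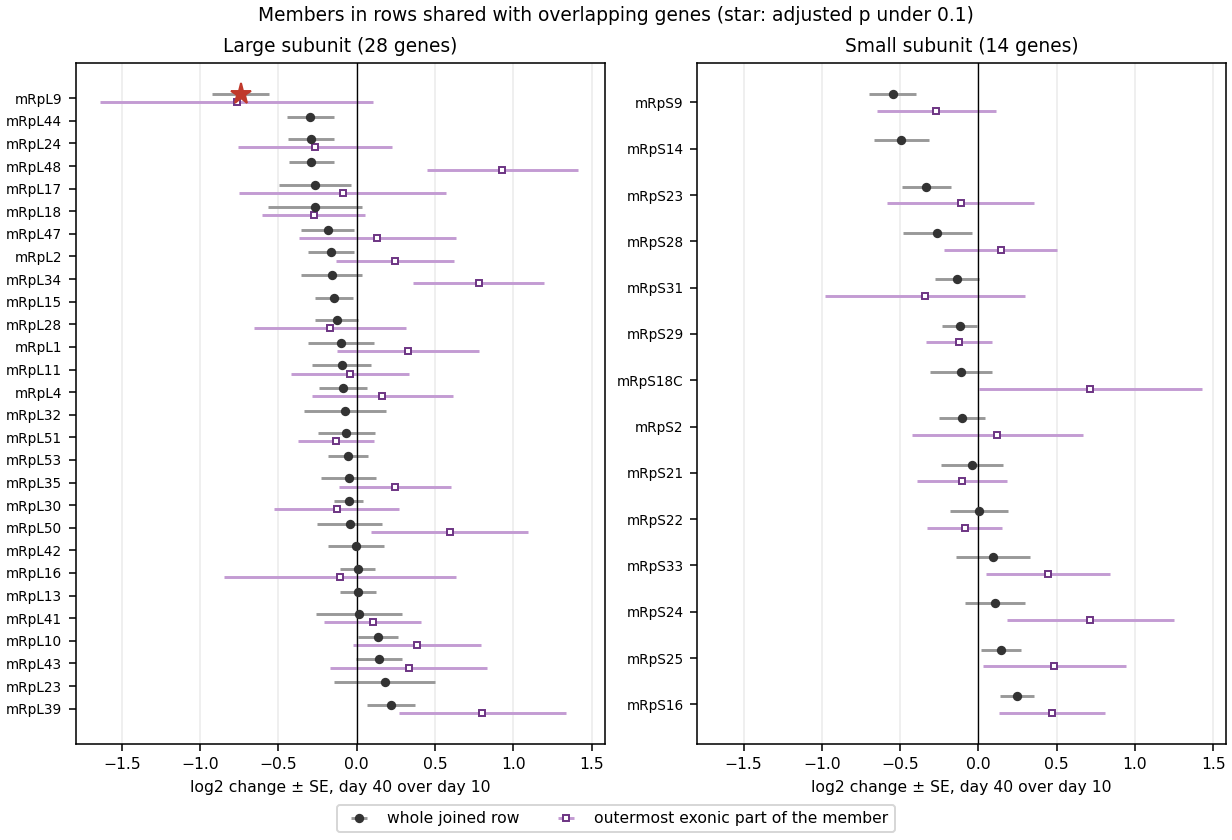
Log2 change ± SE (day 40 over day 10) of the 42 joined rows that hold a member (filled circles) and of the member's outermost exonic part where it was tested (open squares). The star marks the row of mRpL9 and Fkbp39 at -0.74; the parts scatter more widely, with a median SE of 0.45, and sit on both sides of 0.

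The use of exonic parts and junctions was compared through the share of a gene's counts that falls on each. In 29 members with a row of their own, 126 features (80 exonic parts and 46 junctions) were deep enough. In edgeR's usage test 0 of 126 passed an adjusted p of 0.05 (0.00334% of 59968 features did), DESeq2 called 0, and 1 had an unadjusted p under 0.05, against 3.03% of all features. That feature was the first exonic part of mRpS18A (3R:8561917-8562315). It held 81.0%, 89.7% and 91.4% of the gene's counts at day 40, against 95.3%, 97.1% and 96.6% at day 10. All libraries of day 40 were lower, with a usage change of -1.89 on the log2 scale (SE 0.65, unadjusted p = 0.0165, adjusted p = 1.0). That part held 47, 35 and 53 of the gene's 58, 39 and 58 counts at day 40. At day 10 it held 61, 66 and 86 of 64, 68 and 89 counts. The usage change therefore rests on the few counts of each library that lie outside the part. The next features by p were the fifth exonic part of mRpS11, with 26.9%, 30.3% and 34.5% of the gene's counts at day 40, against 63.8%, 34.5% and 42.5% at day 10, and the second part of mRpL52, with 89.8 ± 6.79% at day 40 and 81.6 ± 4.91% at day 10 (SD, n = 3 each). Neither had an unadjusted p under 0.05. mRpS18A, mRpS11 and mRpL52 each have 1 annotated transcript, so these shares cannot show a shift between annotated transcripts.

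Other genes of mitochondrial translation were placed beside the members. Among mitoribosomal proteins with another symbol, tko, the counterpart of a protein of the bacterial decoding centre, had 12.6, 9.15 and 9.99 CPM at day 40, against 11.1, 12.3 and 12.7 CPM at day 10 (log2 change -0.19, SE 0.19). The row of bonsai, another small subunit protein, and CG3732 had a log2 change of -0.29 (SE 0.16). The 4 translation factors with a row of their own, mRRF1, mIF2, mEFTs and mEFTu1, had log2 changes of -0.32 to -0.24, with overlapping ages in each and 0 of 4 called. Of 5 joined rows with a translation factor, 3 were below and 2 above 0, with a median of -0.16 and 0 called. The 4 tRNA synthetases with a row of their own had a median of -0.07 and 0 of 4 called. Of 13 joined rows with a gene for tRNA charging, 8 were below and 5 above 0. In this set 3 had an unadjusted p under 0.05 by edgeR (14.7% of all joined rows did) and 1 was called (3.45% were). Among the 3 was the row of ArgRS-m and mRpS9, which is already counted with the members. The row of GluRS-m, the mitochondrial glutamyl-tRNA synthetase, and Serinc was higher in every library of day 40 (log2 change 0.32, adjusted p = 0.238 by edgeR). The row called was that of GatB, part of the enzyme that makes mitochondrial glutaminyl-tRNA, and Root. It had 15.9, 14.9 and 18.3 CPM at day 40, against 37.4, 31.7 and 28.5 CPM at day 10, and fell by 0.98 on the log2 scale (SE 0.16, adjusted p = 0.0165 by edgeR). Root encodes a protein of the ciliary rootlet, and the files do not separate the reads of these genes.

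Among 11 genes for the upkeep of mitochondrial RNA and DNA, 8 were below 0 with a median of -0.13 and 0 were called. Lower in every library of day 40 were Suv3, a mitochondrial RNA helicase (9.18, 10.8 and 9.45 CPM at day 40, against 11.2, 13.3 and 15.9 CPM at day 10), and PolrMT, the mitochondrial RNA polymerase (19.2, 17.0 and 20.1 CPM at day 40, against 20.6, 24.3 and 26.1 CPM at day 10). Their log2 changes were -0.46 and -0.34, with adjusted p-values of 0.317 and 0.358 by edgeR. They were 2 of 11 genes, where 9.74% of all single-gene rows were lower without overlap. Of 7 joined rows of this list, 4 were below and 3 above 0, with 0 called. The row of Lon and CG9372 was higher in every library of day 40 (log2 change 0.28, adjusted p = 0.241 by edgeR). That of mtDNA-helicase and CG4537 was lower in every one (log2 change -0.54, adjusted p = 0.472 by edgeR). The 40 nuclear genes of oxidative phosphorylation had a median of -0.23 with 36 of 40 below 0, 9 at an unadjusted p under 0.05 (14.2% of all single-gene rows were) and 0 called by edgeR, 1 by DESeq2. This list was made by symbol, and its lowest level at day 40 was 0.830 CPM per kilobase. It takes in variants of subunit names, such as COX7AL2 (-1.22) and ATPsynCF6L (-0.79), but also UQCR-11L (0.26) and ND-49L (0.29). The 55 cytosolic ribosomal protein genes had a median of 0.09 with 38 above 0 and 2 called, both lower, where 4.33% of all single-gene rows were called. The lowest log2 changes of the 55 were those of RpS5b (-3.18) and RpS19b (-2.89). Of 37 mitochondrially encoded genes, 10 were only in joined rows, and 19 of the 27 with a row of their own had 0 counts in all libraries. The 8 tested were 7 genes for proteins that the mitoribosome makes and the gene for its small ribosomal RNA, mt:srRNA. They had a median of 0.40 with 6 above 0 and 0 called. The libraries were depleted of ribosomal RNA, and mt:srRNA ran from 31.6 to 690 CPM within day 10. mt:ND6 had only 0.209 to 6.12 CPM over both ages. mt:ND1, a subunit of respiratory complex I, had 1307, 1370 and 1278 CPM at day 40, against 685, 1147 and 941 CPM at day 10, a log2 change of 0.51 (SE 0.18, adjusted p = 0.236 by edgeR). The differences between these lists were not tested.

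**Figure D5:**
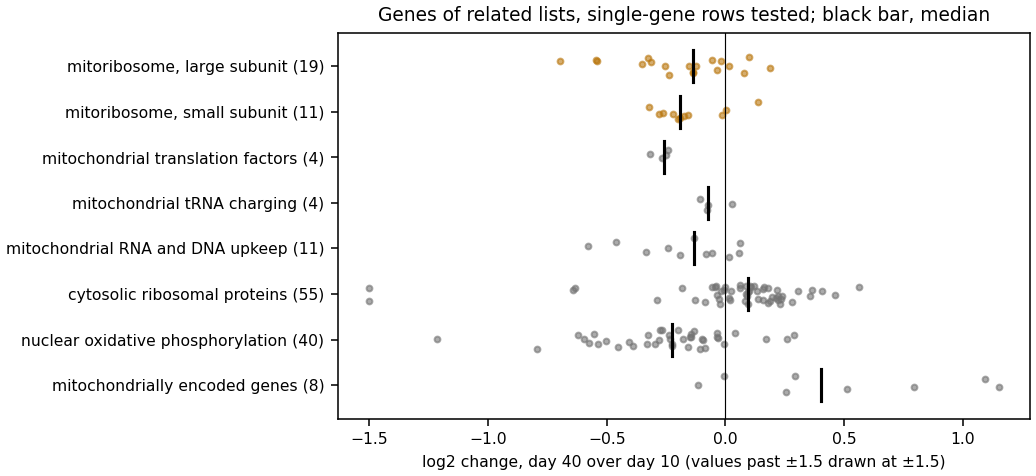
Log2 change (day 40 over day 10) of each tested single-gene row in the mitoribosomal subunits and in 6 related lists, with the number of genes in brackets, a black bar at the median and values beyond ±1.5 drawn at the edge. The mitoribosomal medians (-0.14 and -0.19) lie between those of nuclear oxidative phosphorylation (-0.23) and cytosolic ribosomal proteins (0.09). So do those of RNA and DNA upkeep (-0.13) and tRNA charging (-0.07). Translation factors (-0.26) lie below this range and mitochondrially encoded genes (0.40) above it.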

How the data were processed

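Eyes of male flies were dissected at day 40 and day 10 (3 biological replicates each), and total RNA was depleted of ribosomal RNA, made into libraries with the NuGen Ovation Drosophila system and sequenced on a HiSeq2500. The submitters' processing notes name Trimmomatic, TopHat and build BDGP6; their versions and the annotation release are not given in the sources used here. The authors deposited raw read counts per gene, exonic part and junction for each library, with no strand and with overlapping genes joined in a row, which were used as deposited. A table of the authors' own comparison (fold changes, p-values and fitted expression) was used only for feature positions, with 1 added to its start coordinates.

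Gene rows were tested with edgeR 4.0.16 in R 4.3.3 (TMM scaling, filterByExpr by age, quasi-likelihood test of day 40 over day 10, no covariates), with Benjamini-Hochberg adjustment over all 9255 rows tested and a threshold of 0.1. Feature usage was tested as the interaction of age with a feature's count against the rest of its gene, for features of single genes whose normalized counts averaged 5 or more, at a threshold of 0.05. Exonic parts were also tested like gene rows. CPM use TMM-scaled library sizes, and levels per kilobase divide by the summed length of exonic parts. With 3 libraries against 3, an exact permutation test of a single value cannot go below p = 0.1, so no such test was used. Alternatives were DESeq2 1.42.0, its size factors, no filter, a replicate block, a fit without joined rows, a threshold of 0.05 and each library left out in turn.

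Symbols came from a FlyBase name table, and were found for 17254 of 17560 gene identifiers, with mRpS5 matched by position. Starts and ends in the files equalled those of Release 6 for 29 of 29 members that had a row of their own and were matched by symbol. Named were members past the threshold, the 5 highest and 5 lowest log2 changes and the 3 highest and 3 lowest levels of each subunit, those without overlap between the ages at an unadjusted p under 0.05, the 3 features with the lowest usage p, and tko and bonsai. The members and lists were chosen with earlier results of these data known. The outermost exonic parts were added after the values of the joined rows had been seen. Named after their values had been seen were mRpS30, mRpL18, mRpL34, Suv3, PolrMT, Lon, mtDNA-helicase, GluRS-m, mt:ND1, mt:ND6 and mt:srRNA. Replicate numbers were not taken as pairs.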

Additional observations from a re-analysis of the deposited data

How the results depend on the processing

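The count of members called with a row of their own stayed at 0 of 30 in all alternatives. Among the 42 joined rows, 1 was called (mRpL9 and Fkbp39); DESeq2 and the replicate block each called 2, adding mRpS9, and a threshold of 0.05 called 0. Without 1 library the count ran between 0 and 2: it was 0 without the second or the third library of day 40, 2 without the second of day 10 (with mRpS14), and 1 without the first of day 40, where mRpL18 was called in place of mRpL9. Over all rows, edgeR called 381, DESeq2 601, the replicate block 464 and the fits without 1 library 116 to 459; the cause was not tested. Same-numbered libraries of the ages had correlations of 0.0001, -0.01 and 0.15 in their deviations from the group means. For libraries with different numbers these ran from -0.17 to 0.16. So few values cannot decide whether the replicate numbers pair the samples. The median log2 change lay between -0.28 and -0.11 for the large subunit and between -0.23 and -0.13 for the small subunit when 1 library was left out, lowest for the large one without the first library of day 40 (-0.28) or of day 10 (-0.27). Features with an unadjusted p under 0.05 in usage numbered 1 and ran between 1 and 5 in the fits without 1 library, with 0 past the adjusted threshold in each. Of 328 alternative values of single genes, 319 kept their side of the threshold and 27 changed sign, none of them called. A length from the reference annotation, a replicate block for usage and a motif search in promoters were not run, since the reference tables used here hold gene spans only and the usage model already has a term for each library. Low counts limit the members: mRpL36 and mRpL54 had the largest SEs of those with a row of their own, 0.49 and 0.38 on the log2 scale.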
